A study of Mus musculus with 4 samples.

Results

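B16-RII, a melanoma line cultured from lymph node metastases after the second round of growth in mice, was compared with the parental line B16 across all 33012 probes of an Applied Biosystems mouse genome array. The comparison uses 2 of the 4 samples of the study, 1 array for each line. B16 is a mouse melanoma line of the C57BL6 strain. The passaged lines descend from B16F1 cells placed in the back skin of C57BL6 mice. B16-RI grew out of lymph node metastases of mice whose skin tumour had been excised between day 14 and day 17. A further intradermal round with B16-RI gave B16-RII from lymph nodes and B16-RIIL from the lung. All 4 lines were profiled as cultures, in medium with 20% fetal bovine serum and for at most 10 passages, with an antibiotic-antimycotic solution in the medium of every line and no other agent named. RNA of 2 passage numbers was pooled for each line and 500 ng of it was labelled. B16-RII is a single line selected in animals, and its array carries RNA of cultured cells and not of a metastasis. With 1 array per line there is no replicate error, so no test was run and every difference below describes these arrays.

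Serial passage of a tumour line through an animal enriches for cells that survive, leave the primary site and grow in a distant organ. Melanoma reaches the draining lymph node through lymphatic vessels, and secreted matrix proteins, proteases, adhesion receptors, chemokines and lymphatic growth factors are the groups of genes most often discussed in that step. B16 cells also carry the pigment programme of melanocytes, which served as the check of their identity.

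A probe was counted as detected where its signal-to-noise ratio (S/N) was at least 3 and its flag at most 5000. By this rule the B16 array gave 14375 detected probes and the B16-RII array 14756, of which 12674 were shared. The B16-RII array was brighter, with a median raw signal of 619 against 435 for B16. The deposited normalized signal is the raw signal divided by a constant, with 1 constant for each of 2 sets of probes, and the shift was still there: over probes detected on both arrays the median log2 difference was 0.39 in the first set and 0.40 in the second. Each set was centred on its own median, so all differences given below are log2 units of B16-RII minus B16 after this shift was taken out, and folds are the same quantity on a linear scale. A centred fold is therefore smaller than the plain ratio of the signals printed beside it where B16-RII is higher, and larger where B16-RII is lower. The middle 90% of the centred differences lay between -0.87 and 0.68, and 94.7% of the probes were within 1 log2 unit. For 522 genes with 2 probes detected on both arrays the probes differed from each other by a median of 0.30, and for 1 gene in 10 by more than 0.83. Of 39 such genes with a probe at least 2-fold from B16, 2 had both probes called the same way and 23 had probes of the same sign, so a 2-fold call was seldom repeated by a second probe.

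Of the probes detected on both arrays, 225 (1.78%) exceeded B16 by 2-fold or more and 442 (3.49%) lay below B16 by as much, so that 33.7% of the called probes were higher in B16-RII. This balance depended on the brightness of the probes. The median centred difference was -0.26 in the dimmest 2535 probes and 0.07 in the brightest 2535, and 266 of the 442 lower probes were among the dimmest. When the trend with brightness was removed by a smoothed curve within each probe set, 302 probes were above and 285 below, and 51.4% of the called probes were higher. Quantile normalization of the raw signals gave 324 above and 341 below, or 48.7% higher. Without centring, 846 probes were above and 140 below, or 85.8% higher, and median scaling of the raw signals gave 84.6% higher. The balance of higher and lower probes thus depended on the scaling.

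Probes detected on 1 of the arrays alone were given a bound, namely the bright signal over the dim probe's signal. The dim signal was raised to the smallest signal detected on its array where it was under that. Bounds are on the centred scale and hold for that scale only. They take the dim reading as it stands and make no allowance for its noise, so a fold given as at least a value is meant against that reading. The word alone refers to the B16 and B16-RII arrays and says nothing of B16-RI and B16-RIIL. There were 2043 probes detected on B16-RII and under the S/N limit on B16, and for 915 of them (44.8%) the bound reached 2-fold. In the other direction 1690 probes were detected on B16 alone, and 1353 of them (80.1%) reached 2-fold. Which side was larger depended on the scaling, since 1278 probes were called on B16-RII alone and 1087 on B16 alone with the trend removed, 1256 and 1136 with quantile normalization, 1296 and 1088 without centring and 1288 and 1130 with median scaling. At the level of genes, with 1 probe for each, 139 of 7515 genes detected on both arrays were above B16 (1.85%) and 187 were below (2.49%). Of 7172 genes with no probe detected on both arrays, 410 (5.72%) were called on B16-RII alone and 515 (7.18%) on B16 alone. The other passaged lines share the B16 array with this comparison, so their values are given beside those of B16-RII and not as a repeat of them. B16-RI had 162 probes above B16 (1.33%) and 357 below (2.93%), and B16-RIIL had 268 above (2.13%) and 363 below (2.89%).

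Melanocyte markers were detected on B16-RII as on B16. The enzymes of melanin synthesis Tyr, Tyrp1 and Dct, the melanosome matrix protein Pmel, the transporter Slc45a2 and the lineage transcription factor Mitf were detected on both arrays. Tyrp1 had a normalized signal of 2628 on B16 and 2997 on B16-RII, and Dct had 2041 and 2515. Of the 8 markers on the list 6 had a probe, and their centred differences ran from -0.38 for Mitf to 0.20 for Slc45a2. Markers of other cell types were few. Of 10 endothelial markers 0 were detected on B16 and 1 on B16-RII, Pecam1, at 2.44. Of 10 lymphocyte markers 3 were detected on each array, all with centred differences above 0, at 0.12 for Cd79a, 0.32 for Cd2 and 1.46 for Lck. Lck, a kinase of T cells, was at 1.1 in B16, 2.67 in B16-RI, 4 in B16-RII and 1.59 in B16-RIIL, and was 2.76-fold higher in B16-RII. The part of lymphocytes in the values of B16-RII was not tested. Of 10 macrophage markers 3 on B16 and 2 on B16-RII, of 10 fibroblast markers 4 and 3, and of 7 keratinocyte markers with a probe 2 and 2. Of the macrophage markers Lyz2 was at 5.01 and 3.29 (2-fold lower, under 1 of the 6 scalings). C1qa was called on B16 alone with a bound of 2.57-fold, under 4 of the scalings. The probes of Csf1r disagree. One was called on B16 alone with a bound of 2.16-fold, under 1 of the scalings. Another was detected on B16-RII at 0.7 and not on B16 at 0.28, with a bound of 1.71-fold upward, below the limit.

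A group of probes gave no signal above background on B16 and a strong signal on B16-RII, and the 10 genes with the largest bounds are given here. Pycard, which encodes the inflammasome adaptor ASC, had a normalized signal of 0.39 on the B16 array and of 33.6, 73.5 and 45.1 on the arrays of B16-RI, B16-RII and B16-RIIL, and was at least 143-fold higher in B16-RII than in B16. Slc40a1, the iron exporter ferroportin, was at 1.04 on B16 and at 54.3, 63.6 and 48.8 on B16-RI, B16-RII and B16-RIIL, with a bound of 46.6-fold for B16-RII. Both genes were thus detected on all 3 passaged arrays and not on B16. Spp1, the secreted phosphoprotein osteopontin, which binds integrins and CD44, stood among the 10 genes with the largest bounds. The B16 signal of 1.87 stood against 25.1 in B16-RI, 82.8 in B16-RII and 108 in B16-RIIL, and Spp1 was at least 33.7-fold higher in B16-RII than in B16, or 5.07 log2 units. A second Spp1 probe was not detected on B16 at 0.48, was at 10.2 on B16-RII, and gave a bound of 4.02 log2 units, so the direction was the same with both probes.

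Other genes of this group had another course over the lines. Mrap, the accessory protein of the melanocortin receptors, went from 0.34 on B16 to 8.08 on B16-RI, 20.8 on B16-RII and 28.3 on B16-RIIL, and was at least 46.5-fold higher in B16-RII. Apobec2, a member of the cytidine deaminase family, was not detected on B16 at 0.23 or on B16-RI at 1.5, and was at 17.7 on B16-RII and 30.7 on B16-RIIL. The B16-RI reading had an S/N of 2.98, just under the limit of 3. The bound of this Apobec2 probe was 37.5-fold in B16-RII, whereas another probe of the gene was detected on both arrays at 1.09 and 2.34 and differed by 0.70 log2 units, below the limit. Naalad2, a dipeptidase related to glutamate carboxypeptidase, was at 14.9 on B16-RII, against 0.49 in B16, 0.75 in B16-RI and 2.04 in B16-RIIL, so that its highest signal was that of B16-RII. The remaining genes with the largest bounds were Bcas1 at 26.3-fold, the choline transporter family member Slc44a4 at 23.8-fold, the secreted protein Fam3b at 19.1-fold and Tmem116 at 17.7-fold.

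The stretches before the start sites of Spp1, Pycard and Apobec2 are shown because at least 1 probe of each went from background on B16 to a strong signal on B16-RII, and because their start sites are annotated in RefSeq. Each line is the run of 250 bases upstream of the start, 5′ to 3′ on the strand of the gene, on assembly GRCm38.p6, and capitals mark 1 of 6 motifs searched on both strands. The Spp1 stretch is chr5:104434861-104435110 on the plus strand, the Pycard stretch chr7:127993868-127994117 on the minus strand and the Apobec2 stretch chr17:48432729-48432978 on the minus strand.
Spp1: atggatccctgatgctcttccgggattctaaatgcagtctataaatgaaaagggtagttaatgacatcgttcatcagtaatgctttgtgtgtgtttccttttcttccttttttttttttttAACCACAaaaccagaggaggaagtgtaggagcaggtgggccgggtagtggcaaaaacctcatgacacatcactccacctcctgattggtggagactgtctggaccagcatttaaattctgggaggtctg
Pycard: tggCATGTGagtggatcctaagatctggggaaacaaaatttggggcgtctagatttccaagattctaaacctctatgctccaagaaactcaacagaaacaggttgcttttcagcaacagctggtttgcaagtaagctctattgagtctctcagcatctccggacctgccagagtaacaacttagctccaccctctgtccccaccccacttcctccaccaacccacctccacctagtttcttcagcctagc
Apobec2: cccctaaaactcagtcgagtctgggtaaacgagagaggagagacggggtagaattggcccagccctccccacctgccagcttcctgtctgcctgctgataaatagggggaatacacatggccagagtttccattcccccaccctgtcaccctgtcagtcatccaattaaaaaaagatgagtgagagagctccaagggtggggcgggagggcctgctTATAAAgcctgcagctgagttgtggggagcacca
The motifs were TATAAA of the TATA box, which is found in 13.0% of all 27025 promoters of the table over the same length, and a run of the type bound by Runx factors, AACCACA, found in 4.46%. Of the forms of the E-box, CACGTG is found in 6.04% and CATGTG in 12.2%, and other forms were not searched. Sites of AP-1 with the letters TGANTCA are found in 6.85%. The core of hypoxia response elements, ACGTG, is found in 16.5% and lies within CACGTG. The Spp1 stretch holds AACCACA from 129 to 123 bases before the start and TATAAA farther upstream. The Pycard stretch holds CATGTG from 247 to 242 bases before the start, and the Apobec2 stretch holds TATAAA from 34 to 29 bases before the start and, on the other strand, 1 match to CATGTG. A match describes the letters of these windows and is not a measured site.

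Genes detected on B16 alone were led by Spata9, at 27.9 on B16 and 0.62 on B16-RII, at least 59.0-fold lower after centring, or -5.88 log2 units, with -5.35 as the smallest value over the 6 scalings. Plxna3, a receptor of the class 3 semaphorin guidance cues, was at 14.96 on B16 and at 1.16, 0.47 and 0.48 on B16-RI, B16-RII and B16-RIIL, none of them detected, and was at least 41.8-fold lower in B16-RII after centring, or -5.39 log2 units, with -4.83 as the smallest value over the scalings. Rnf43, a membrane ubiquitin ligase that removes Wnt receptors, was at 6.49 on B16 and 0.19 on B16-RII, at least 23.1-fold lower. Like Plxna3, the other 9 genes with the largest bounds in this direction were under the detection limit on all 3 passaged arrays. Among them were Mfng, a glycosyltransferase that modifies Notch, with 14.0 on B16 and 0.92 on B16-RII and a bound of 20.0-fold, and Serpine2, an inhibitor of thrombin and plasminogen activators, with 5.56 and 0.43 and a bound of 17.0-fold. Tnfrsf11b, the decoy receptor osteoprotegerin, was at 4.9 on B16 and 0.36 on B16-RII, at least 17.4-fold lower. Cyp3a16 with 22.1-fold, Ryr1 with 17.1-fold, 4930590J08Rik with 15.8-fold and the vomeronasal receptor Vmn1r14 with 14.5-fold made up the rest.

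**Figure D1:**
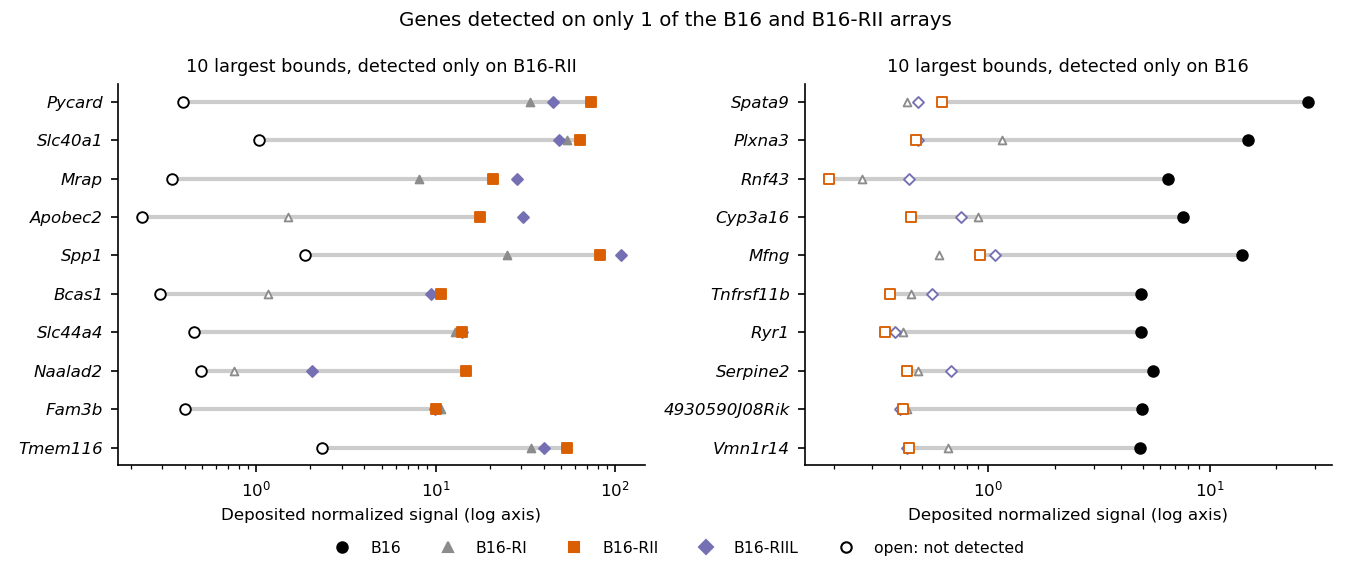
Deposited normalized signal (horizontal log axis) on the arrays of B16, B16-RI, B16-RII and B16-RIIL for the 10 genes with the largest bounds among those detected only on B16-RII (left) and only on B16 (right), with 1 marker per array, open where not detected, and a grey line from B16 to B16-RII. Spp1 runs from 1.87 on B16 to 82.8 on B16-RII, and all 10 genes on the right are open on every passaged array.

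Among genes detected on both arrays, Tmem144, a membrane protein placed in a family of sugar transporters, differed most upward. Signals of 4.15 for B16, 58.4 for B16-RI, 80.5 for B16-RII and 48.3 for B16-RIIL gave a centred difference of 3.88 or 14.7-fold. Hapln1, a link protein that holds hyaluronan and proteoglycans together, was at 4.14, 67.1, 44.2 and 31.0 in the same order and was 8.10-fold higher in B16-RII. Tinagl1, a matrix glycoprotein of basement membranes, was at 3.14 on B16 and 32.9 on B16-RII (7.97-fold). All 3 genes were above B16 on every passaged array.

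Ddx39b, a helicase of mRNA splicing and export, was at 36.5 on B16 and 323 on B16-RII (6.75-fold). Akt1s1, the mTORC1 regulator PRAS40, was at 10.5 and 87.4 (6.35-fold), and Etf1, the factor that ends translation at stop codons, was at 23.6 and 159 (5.13-fold). For these 3 genes the B16-RI and B16-RIIL signals, between 75.5 and 320, were also far above B16. Osgin1, an oxidative stress-induced growth inhibitor, was 6.55-fold higher, Gsta4, a glutathione transferase for lipid aldehydes, 5.51-fold, and Crabp2, which carries retinoic acid to its nuclear receptor, 5.54-fold. Slc44a3 of the choline transporter family was 7.46-fold higher, the ADP-ribosyltransferase Art3 5.85-fold, Csnk1e, a casein kinase of the circadian clock and Wnt signalling, 4.72-fold and Tmc4 5.17-fold. Bnip3l, a mitophagy receptor, was 6.78-fold higher with 1 probe, at 1.2 and 10.7, but a second and brighter probe was at 114 and 159, a difference of 0.09, so its probes disagree.

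Nnmt, which methylates nicotinamide and so draws on the methyl donor pool, differed most downward. Signals of 58.2 for B16, 14.8 for B16-RI, 6.05 for B16-RII and 14.96 for B16-RIIL gave a centred difference of -3.66, or 12.6-fold lower. Gpx3, the secreted glutathione peroxidase, was at 7.72 on B16 and 1.38 on B16-RII (7.35-fold lower), and Abcg2, a drug efflux pump, was at 16.3, 8.63, 3.33 and 0.65 from B16 to B16-RIIL (6.42-fold lower in B16-RII). The lowest Nnmt signal was on B16-RII, whereas Abcg2 was lower still, and not detected, on B16-RIIL. Itga4, the alpha-4 integrin subunit that binds VCAM-1 and fibronectin, was at 10.0 on B16 and 2.6 on B16-RII (5.07-fold lower), and its other probe was detected on neither array. Vcl, the focal adhesion protein vinculin, was at 11.01 and 3.7 (3.92-fold lower), and Cd109, a surface protein that binds TGF-beta, was at 14.7 and 4.47 (4.33-fold lower). Cd74, the invariant chain of MHC class II, was at 5.46 in B16, 3.74 in B16-RI, 1.46 in B16-RII and 5.73 in B16-RIIL, so that B16-RII was the lowest of the 4 and B16-RIIL was near B16. The macrophage markers Lyz2 and C1qa were lower in B16-RII too, while the probes of Csf1r disagreed. The part of macrophages in the Cd74 value was not tested. The others were Rnf24 at 6.10-fold, the histone gene H2ac11 at 5.38-fold, the potassium channel domain protein Kctd12 at 4.46-fold, Dipk1b at 3.76-fold and the glucose transporter family member Slc2a6 at 3.73-fold lower. Ticrr, needed to start DNA replication, the centrosomal gene Cep97 and 2410002F23Rik were also among them, at 7.87-fold, 3.73-fold and 5.37-fold lower, but Ticrr and 2410002F23Rik had a second probe at -0.31 and 0.35.

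**Figure D2:**
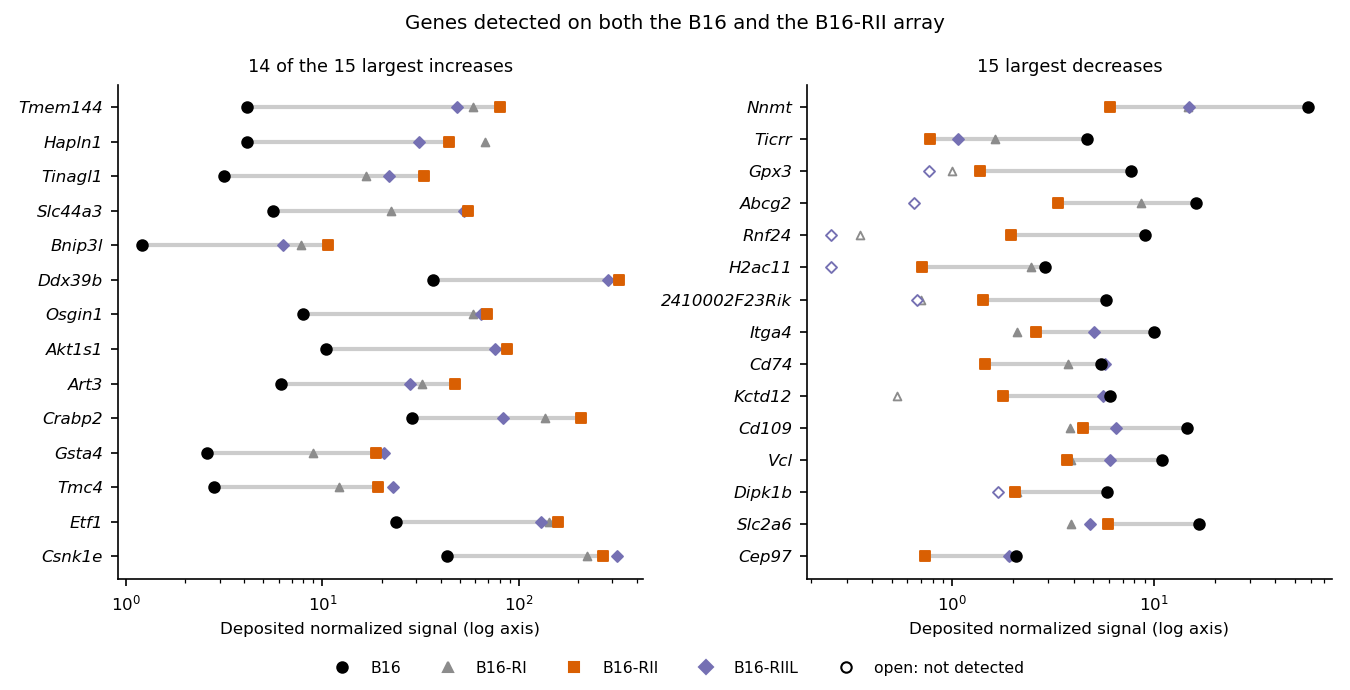
Deposited normalized signal (horizontal log axis) on the arrays of B16, B16-RI, B16-RII and B16-RIIL for 14 of the 15 genes with the largest increase (left) and the 15 with the largest decrease (right) among those detected on both the B16 and B16-RII arrays, with 1 marker per array, open where not detected, and a grey line from B16 to B16-RII. Tmem144 runs from 4.15 to 80.5 and Nnmt from 58.2 to 6.05, and on the left every B16-RI and B16-RIIL marker lies above B16.

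The 50 genes of these 4 groups were at least 2-fold from B16 under each of the 6 scalings, the one without centring included. The genes were then read by function, with 32 lists and the brightest probe detected on both arrays for each gene. Over all 7515 genes the median centred difference was 0.04, and the middle 90% lay between -0.75 and 0.69. The list medians ran from -0.38 for matrix proteases to 0.49 for 3 complement genes.

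Of 38 proteases and inhibitors with a probe 14 were detected on both arrays, with a median of -0.38. A further 6 were called on B16 alone and 3 on B16-RII alone, beside 7.18% and 5.72% of all genes with no probe detected on both arrays. Besides Serpine2 these included Plat, tissue plasminogen activator, at 3.52 on B16 and 0.63 on B16-RII (at least 7.36-fold lower), Adam15 at 1.79 and 0.47 (at least 5-fold) and Plaur, the urokinase receptor, at 1.69 and 0.58 (at least 3.83-fold). Mmp17 and Mmp13 were the other 2, with bounds of 2.78-fold and 2.37-fold, the last under 3 of the 6 scalings. Mmp11 and Adamts4 were 2.52-fold and 2.16-fold lower, although Mmp11 kept the call under 5 and Adamts4 under 4 of the 6 scalings. In the other direction the aggrecanase Adamts5 was at 0.49 on B16 and 6.16 on B16-RII (at least 9.57-fold higher), Adam12 and Adam8 were called on B16-RII alone with bounds of 2.64-fold and 2.29-fold, and the protease inhibitor Timp1 was at 4.4 and 12.2 (2.10-fold higher).

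Matricellular proteins, which bind matrix and receptors without building fibres, had a median of 0.32 over 9 genes. Sparcl1, a relative of Sparc, was at 23.7 in B16, 53.7 in B16-RI, 110 in B16-RII and 112 in B16-RIIL (3.53-fold higher in B16-RII), and Sparc itself was at 78.1 and 128, a difference of 0.32. Postn (periostin) was at 2.34 on B16 and 0.48 on B16-RII, at least 6.41-fold lower, and Tgfbi and Thbs3 were called on B16 alone with bounds of 3.99-fold and 2.86-fold, that of Thbs3 under 5 of the 6 scalings. Spp1 and Sparcl1 were thus higher on B16-RII while periostin was under detection in all 3 passaged lines. Of the collagen list, Pcolce, an enhancer of procollagen processing, was at 22.9 and 85.7 (2.84-fold higher) and Rcn3, a calcium-binding protein of the secretory pathway, was at least 7.91-fold higher. The crosslinking enzyme Loxl2 was at least 9.87-fold lower, Col6a2 at least 6.81-fold lower, and Col1a1 2.07-fold lower, a call that held under 1 of the 6 scalings. Col1a1 and Postn are also markers of fibroblasts, of which 4 of 10 were detected on B16 and 3 on B16-RII, and the part of such cells in these values was not tested.

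Of the 22 genes of lymphatic and vascular growth factors with a probe, 7 were detected on both arrays, with 0 above B16 and 2 below, beside 1.85% and 2.49% of all genes. Vegfa, the main growth factor of blood vessels, was at 8.6 in B16, 2.39 in B16-RI, 3.46 in B16-RII and 5.59 in B16-RIIL, and was 3.27-fold lower in B16-RII, a call that held for both of its probes and, for this probe, under all 6 scalings. Vegfc, the ligand of the lymphatic receptor VEGFR-3, was at 11.4 on B16 and 21.5 on B16-RII, a difference of 0.52, and Vegfb was at 96.1 and 165, a difference of 0.39, both under the limit. Adm, adrenomedullin, was at 12.8 and 6.81, 2.46-fold lower, with the call under 4 of the 6 scalings, and Igf2 was called on B16 alone at 1.95 against 0.45. Among chemokines, Cxcl10, an interferon-inducible ligand of CXCR3, was at 61.6 in B16, 254 in B16-RI, 289 in B16-RII and 213 in B16-RIIL, and was 3.57-fold higher in B16-RII. Cxcl10 was thus higher on every passaged array. The chemokine receptor Ccr9 was at 3.11 on B16 and under detection on the other arrays, with a bound of 7.57-fold, and Cxcl14 was called on B16 alone with a bound of 3.43-fold.

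Over 13 interferon-stimulated genes detected on both arrays the median was -0.21 and 3 were above 0. Of the 13, 1 was called above B16 and 1 below, beside 1.85% and 2.49% of all genes. The gene above was Ifit2, at 4 and 11.4 (2.17-fold, under 5 of the 6 scalings). Oasl1 was called on B16-RII alone at 2.17-fold, and Ifitm3, a membrane protein that blocks virus entry, was at 51.6 and 22.5, or 3.02-fold lower. Of 8 MHC class I and peptide loading genes, H2-D1 was 2.68-fold higher, and the median was 0.05. Of the complement genes, the regulator clusterin (Clu) was at 32.7 in B16, 54.3 in B16-RI, 122 in B16-RII and 270 in B16-RIIL (2.85-fold higher in B16-RII), and Cfi, complement factor I, was at 0.35, 2.79, 7.4 and 7.48 (at least 16.1-fold higher).

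Adhesion lists had medians near that of all genes, at 0.08 for integrins and focal adhesion and -0.02 for cadherins and junctions. Beside Itga4 and Vcl, Itgb5 and Itgb7 were called on B16 alone, with bounds of 5.85-fold and 4.27-fold, and Itga8 on B16-RII alone with 2.25-fold. Itgb1, the common beta-1 subunit, was at 185 and 270, a difference of 0.15. Cdh13 (T-cadherin) was at 5.86 on B16 and 1.02 on B16-RII, at least 7.55-fold lower, and the epithelial genes Epcam and Cdh1 (E-cadherin), both dim on B16 at 1.53 and 1.22, were under detection on B16-RII and detected on B16-RIIL at 2.1 and 1.62. Cdh2 (N-cadherin) and Vim (vimentin) differed by 0.22 and -0.02. The metastasis suppressor Cd82 was at 2.67 in B16, 1.02 in B16-RI, 0.64 in B16-RII and 2.59 in B16-RIIL, so it was detected on B16 and B16-RIIL and not on the lymph node lines.

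Of the hypoxia-responsive genes, 15 were detected on both arrays with a median of -0.20, and members differed in both directions. Car9, the carbonic anhydrase of hypoxic tumours, was at 1.93 in B16, 2.62 in B16-RI, 10.6 in B16-RII and 18.7 in B16-RIIL (4.15-fold higher in B16-RII). The 2 members below B16 were Vegfa and Adm, which are also on the list of growth factors and were 3.27-fold and 2.46-fold lower, and over all genes 1.85% were above and 2.49% below. Egln3, a prolyl hydroxylase, and Ddit4, an mTORC1 inhibitor, were called on B16 alone with bounds of 7.5-fold and 6.68-fold, beside 7.18% of all genes with no probe detected on both arrays. Glycolysis had a median of -0.13 over 18 genes with 0 called on both arrays, Eno2 was called on B16 alone at 2.21 against 0.94 with a bound of 3.09-fold, and Ldha was at 2008 and 2806, a difference of 0.08. Oxidative phosphorylation, with 34 genes and a median of -0.07, and cytosolic ribosomal proteins, with 36 genes and a median of -0.03, had 0 genes detected on both arrays and called, beside 1.85% above and 2.49% below over all genes. Uqcrc1, a core subunit of complex III, was called on B16-RII alone, at 11.1 against 1.65 on B16. Its signal was 1.19, not detected, on B16-RI and 2.22 on B16-RIIL, so B16-RII stood apart from the other arrays. Ndufa4 was called on B16 alone with a bound of 2.17-fold, under 2 of the 6 scalings.

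The cell cycle list had a median of 0.25 over 31 genes, of which 24 were above 0 and 0 were called above B16, beside 1.85% of all genes. Rrm2, the small subunit of ribonucleotide reductase, was at 154 and 331, a difference of 0.71, Cdc6 differed by 0.65 and the helicase subunit Mcm5 by 0.63, all under the limit. This median was 0.06 after quantile normalization. Cdk2 was 2.25-fold lower, under 3 of the 6 scalings, Cdk6 and the inhibitor Cdkn2c were called on B16 alone with bounds of 3.37-fold and 3.12-fold, and the inhibitor Cdkn1b (p27) was called on B16-RII alone with 3.31-fold. Cholesterol and fatty acid synthesis had a median of 0.03 over 24 genes, and Insig1, a sterol-regulated protein of the endoplasmic reticulum, was at 42.4 and 91.2, a difference of 0.71.

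In the list of heat shock and unfolded protein response, 3 of 27 genes were called below B16 and none above, beside 2.49% and 1.85% of all genes. Ddit3 (CHOP) was at 64.6 in B16, 18.5 in B16-RI, 37.1 in B16-RII and 47.3 in B16-RIIL, and Chac1, which degrades glutathione, was at 82.4, 17.9, 46.9 and 71.1, or 2.29-fold and 2.31-fold lower in B16-RII, each under 4 of the 6 scalings. Atf3 was at 12.7 and 5.82, 2.88-fold lower. The chaperone Hspa5 (BiP) was at 353 and 740, a difference of 0.67, the chaperone Hyou1 was called on B16-RII alone with a bound of 2.69-fold, and the median of the list was 0.01. Among glutathione and antioxidant genes, with a median of 0.15 over 29 genes, Gsta4 was higher and Gpx3 and Mgst1 (17.8 and 7.1, 3.29-fold lower) were lower. The extracellular superoxide dismutase Sod3 and the transcription factor Nfe2l2 (NRF2) were called on B16-RII and not on B16, with bounds of 5.27-fold and 4.24-fold. Both were also detected on the other passaged arrays. Sod3 was at 5.57 on B16-RI, 3.67 on B16-RII and 3.02 on B16-RIIL, and Nfe2l2 at 2.78, 3.91 and 1.35. Of the 29 genes 20 were above 0.

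Signalling lists held single members that differed more than their list. Wnt6 was at 5.1 in B16, 11.4 in B16-RI, 20.8 in B16-RII and 14.9 in B16-RIIL (3.10-fold higher in B16-RII), and Lgr5, the receptor of R-spondins, was at 0.93, 5.51, 10.3 and 7.68 (at least 8.43-fold higher), while Rnf43 was lost from detection. Lgr5 and Rnf43 act at the same point of the Wnt pathway, whose list median was 0.33 over 14 genes. Of the BMP and TGF-beta list, with a median of 0.25 over 19 genes, Id1 was at 2.1 and 6.31 (2.28-fold higher) and Id3 at 0.46 and 3.98 (at least 6.57-fold higher), and Id2 differed by 0.84. Id3 was not detected on B16-RIIL, at 0.55, and the stress-induced cytokine Gdf15 was 2.09-fold lower, under 2 of the 6 scalings. Of receptor tyrosine kinases, Met, the hepatocyte growth factor receptor, was at 3.42 and 8.92, a difference of 0.99 just under the limit, and Ros1 was called on B16 alone with 6.31-fold. Of MAPK outputs, Junb was 3.46-fold lower, Etv5 was called on B16-RII alone with 2.23-fold, and Dusp2 on B16 alone with 2.02-fold, under 2 of the 6 scalings.

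Transporters and small enzyme families gave some of the largest differences. Slc44a3 and Slc44a4 were higher, whereas Slc44a1, the main choline transporter-like protein, was at 12.1 and 7.75, 2.04-fold lower under 2 of the 6 scalings. Of ABC transporters, Abcg2 and Abcc5 (2.42-fold, under 4 of the 6 scalings) were lower, and the drug pump Abcb1b was called on B16-RII alone at 1.67, with a bound of 3.34-fold. Art4 was at 0.73 in B16, 4.68 in B16-RI, 11.5 in B16-RII and 5.24 in B16-RIIL (at least 12.0-fold higher in B16-RII), so that both ectoenzymes Art3 and Art4 had their highest signal on B16-RII. Mcoln3, a cation channel of endosomes, was at 0.45 in B16, 1.13 in B16-RI, 7.73 in B16-RII and 30.0 in B16-RIIL (at least 13.1-fold higher in B16-RII). Of the melanocyte receptors, Gpr37 was at 0.52, 2.92, 4.64 and 20.1 (at least 6.79-fold higher). Mcoln3 and Gpr37 were therefore higher in B16-RII than in B16 and highest in the lung line. Of apoptosis genes, the inhibitor Birc3 was called on B16-RII alone with 4.81-fold, and Bcl2 was called on B16 alone with both of its probes, at -1.96 and -1.76 log2 units. Of guidance genes, Plxna2 and the ligand Efna1 were called on B16 alone beside Plxna3, with 3.50-fold and 3.42-fold.

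**Figure D3:**
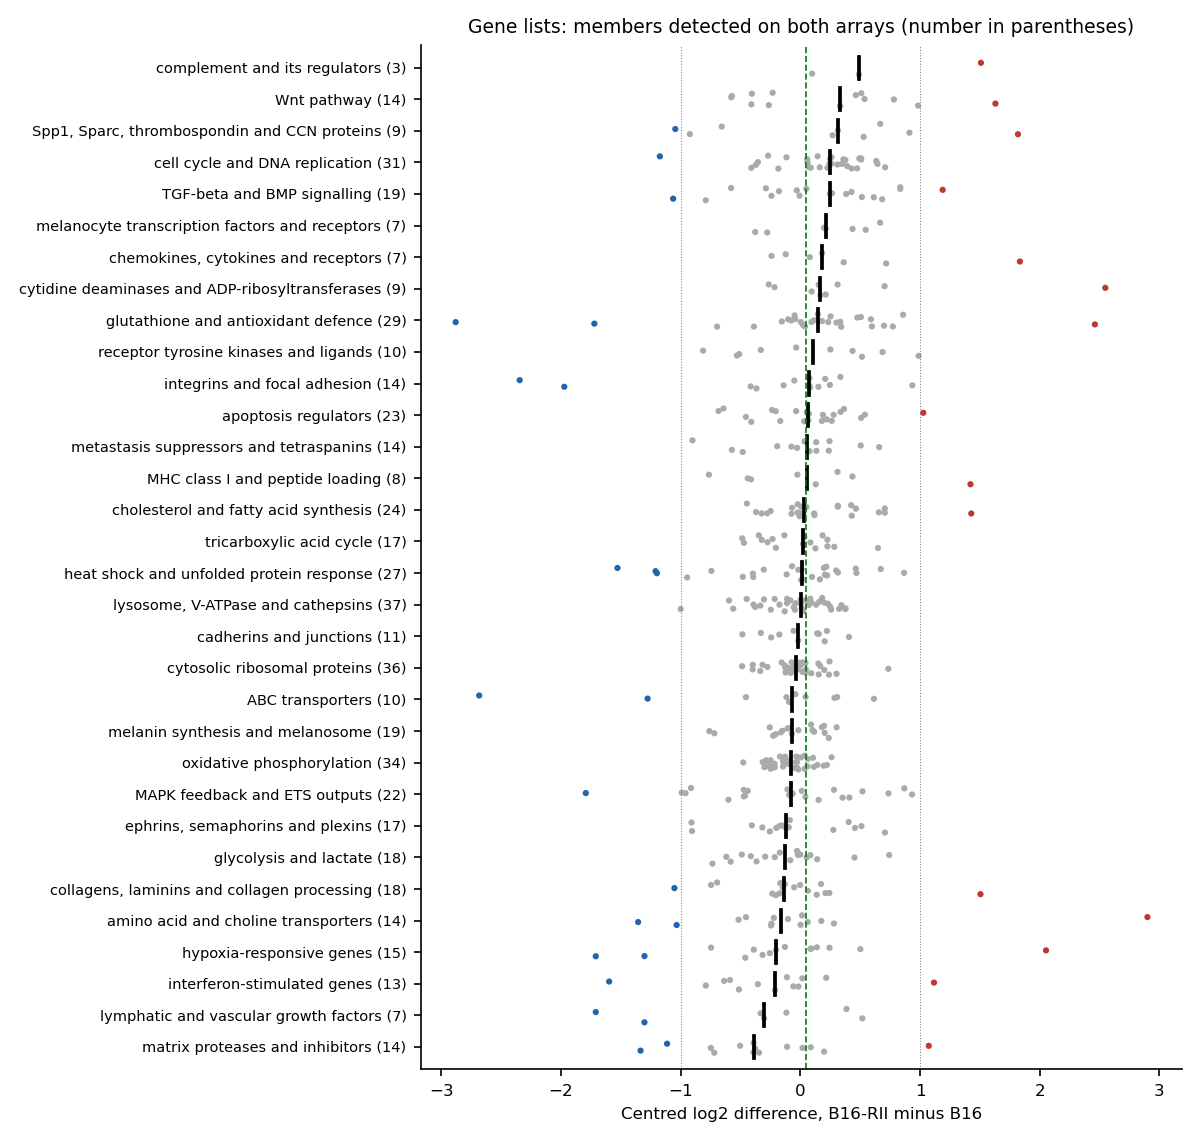
Centred log2 difference between B16-RII and B16 (horizontal axis) for the members of 32 gene lists detected on both arrays, with 1 point per gene, the number of genes in parentheses, the list median as a black bar, all genes as a green dashed line at 0.04 and the 2-fold limits as dotted lines (red above, blue below). The list medians stay between -0.38 and 0.49 while single genes reach -2.88 and 2.90.

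The chromosome medians are given beside that of all genes, 0.04. The highest were chromosome 16, at 0.15 with 236 genes of which 69.5% were above 0, and chromosome 19, also at 0.15 with 276 genes. The lowest were chromosome 18, at -0.09 with 174 genes, and chromosome 15, at -0.06 with 312. Chromosome 8, with 424 genes, was at 0.10 in B16-RII, at 0.01 in B16-RI and at 0.39 in B16-RIIL, all against the same B16 array.

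**Figure D4:**
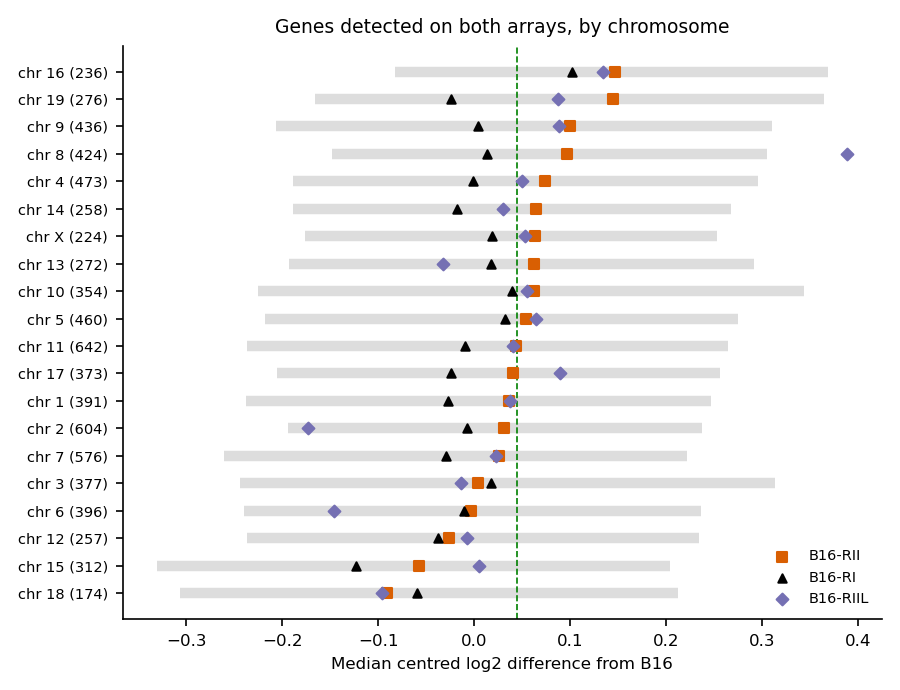
Median centred log2 difference from B16 (horizontal axis) of the genes of each chromosome detected on the B16 and B16-RII arrays, with squares for B16-RII, triangles for B16-RI and diamonds for B16-RIIL, grey bars from the lower to the upper quartile of B16-RII, and the number of genes in parentheses. The squares lie between -0.09 and 0.15 around the line of all genes at 0.04, and the diamond of chromosome 8 stands apart at 0.39.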

How the data were processed

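Cultured B16 and B16-RII cells were profiled on Applied Biosystems mouse arrays, whose probes each give a chemiluminescence signal. The values deposited by the authors were a raw and a normalized intensity per probe and, as scores of the scanner, the S/N and the flag. The deposited normalized intensity was found to be the raw intensity divided by 1 of 2 constants per array (372 and 389 for B16, 588 and 488 for B16-RII) and not a quantile normalized value. The 16 columns of the 4 labelled samples were used. The labels give 1 sample per line although duplicates are described, so 20 columns of second arrays, 10 columns of their ratios and 14 columns in log2 or as a ratio (the authors' own comparisons of the arrays used) were left out. The genome build of the probes was not given in the sources used here.

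The deposited normalized intensity was put on a log2 scale with no pseudocount, and each probe set was centred on its median difference over probes detected on both arrays. A probe was called at 2-fold, or 1 log2 unit. A probe at S/N under 3 on the dim array gave a bound only. Symbols of 16186 of 17302 probes with a symbol were matched to 14687 genes of the RefSeq table of GRCm38.p6, from which promoters and chromosomes also come. Named genes were the 15 largest differences each way among genes detected on both arrays, the 10 largest bounds each way, called members of 32 lists (at most 4 per list and direction) and Spp1, with further list members given as values. The members and lists were chosen with earlier results of these data known, and some genes that meet this rule are not reported here.

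No test was run, since 1 array per line leaves no replicate error, and their number bounds the precision. Alternatives were other scalings and centrings (6 in all with no centring), other detection limits (S/N of 5, or detection on all 4 arrays), other fold limits and the mean over probes. Calculations used Python 3.11.15, numpy 2.4.6, pandas 2.3.3, statsmodels 0.14.6 and matplotlib 3.10.9.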

Additional observations from a re-analysis of the deposited data

How the results depend on the processing

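The 50 genes with the largest differences and bounds were called under each of the 6 scalings, and no called difference of a named gene changed its direction under the scalings run. The counts of probes depended on the scaling. Without centring 846 probes were above B16 and 140 below, and with median scaling of the raw signals 930 were above and 169 below, since a median shift of 0.40 and 0.37 log2 units between the arrays stayed in. Centring along brightness gave 285 below, with 208 of the 225 higher probes and 271 of the 442 lower probes kept. Stricter and looser rules changed the counts by their construction. An S/N of at least 5 gave 131 above, 236 below, 511 on B16-RII alone and 606 on B16 alone. Detection on all 4 arrays left 287 below. At 4-fold there were 32 above, 30 below, 205 on B16-RII alone and 581 on B16 alone, and at 1.5-fold 903 above and 1385 below. Apart from no centring and median scaling, 239 of 243 list medians and 120 of 120 chromosome medians stayed within 0.39 log2 units, the spread between probes of a gene, as did 503 of 584 values of named genes.

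No paired analysis was possible because 1 array per line was used and nothing pairs the lines, and for the same reason no replicate was left out. Signal over background limits the dim probes, whose ratios are bounds where 1 array was under the S/N limit. For 1 gene in 10 the probes differed by more than 0.83 log2 units, close to the 2-fold limit, and a difference between lines cannot be told apart from a difference between their cultures or arrays.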
